A study of Homo sapiens with 8 samples.

Results

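Splicing factor genes of the hnRNP, SR and Sm families were followed in NCI-H2009 cells after repression of e3, the enhancer region targeted in the series and known to act on MYC in lung adenocarcinoma. The members were all rows whose symbol began with HNRNP, SRSF or SNRP, without a pseudogene ending or a hyphen, whose average across the 8 libraries reached 5 RPKM, a level scaled to gene length and library depth. This gave 41 of 52576 rows: 19 HNRNP, 11 SRSF and 11 SNRP genes. Another 68 rows with these prefixes had a pseudogene ending or a hyphen, and 3 lay under the minimum, SNRPN at 1.40, SRSF12 at 0.232 and HNRNPCL1 at 0 RPKM. The lowest members were SRSF10 at 8.05 and HNRNPH2 at 11.1 RPKM.

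NCI-H2009 is an established human lung adenocarcinoma line, and every group had been given dCas9-KRAB, a cleavage-dead Cas9 joined to a domain that recruits chromatin repressors. The 4 groups of 2 libraries received e3 guide 1, e3 guide 2, a non-targeting guide without a match in the human genome, or no guide RNA. The libraries with the non-targeting guide and those without a guide served as controls. No age, dose or time was given, and the labels do not say whether the cells were a clone. They also do not say that replicates were grown separately, so p-values measure only how far these libraries spread, and part of that spread may be technical. In bulk RNA, fewer cells with a transcript and less of it per cell cannot be told apart.

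Introns are removed from messenger RNA precursors by the spliceosome, which is built from small nuclear ribonucleoproteins (snRNPs). Each major snRNP except U6 carries a ring of Sm proteins, encoded by SNRPB, SNRPD1, SNRPD2, SNRPD3, SNRPE, SNRPF and SNRPG, closed around its RNA. SR proteins, encoded by the SRSF genes, mostly bind exonic enhancers and favour use of nearby splice sites, while hnRNP proteins coat nascent transcripts and often oppose that use. Splicing factor genes, among them HNRNPA1, HNRNPA2B1, SRSF1 and genes for Sm ring assembly, have been described as MYC-dependent in other tumour cells. Gene-level values of the kind deposited here do not show splicing itself.

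Depth, inferred from the steps between low values, was between 3847807 and 5711042 reads per library over the genes tested. Behind each member's value lay between 76 and 5417 reads, except for HNRNPH2, which rested on 3 to 9. MYC itself stood at 42.4 and 43.4 RPKM under guide 1 and 36.3 and 36.2 RPKM under guide 2, against 88.9 and 90.1 RPKM with the non-targeting guide and 74.6 and 72.7 RPKM without a guide. This was a log2 change of -1.02 ± 0.10 on the log2(RPKM + 1) scale (SE; limma, adjusted p = 0.00215). The epithelial markers EPCAM, KRT7, KRT8, KRT18, KRT19 and CDH1 each exceeded 173 RPKM in every library, and NKX2-1 lay between 23.2 and 43.2 RPKM. The lung markers NAPSA and SFTPB stayed at or under 1.30 and 0.117 RPKM. Of 9 listed markers of leukocytes, endothelium and fibroblasts, 8 were in the table, CD3E was at 0 throughout and 6 stayed under 1 RPKM. Their summed level was 35.5 to 39.0 RPKM with the e3 guides, 26.7 to 29.6 RPKM with the non-targeting guide and 16.8 to 17.1 RPKM without a guide, most of it from CD68, a lysosomal protein gene. The part of this in the results below was not tested.

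The promoter stretches of 2 members that fell, SNRPF and HNRNPU, are shown because few of their bases are annotated as transcribed. They are the 250 bases before the gene's start in RefSeq (GRCh38.p14), in the direction of transcription, with CCAAT or its reverse complement ATTGG in capitals. GENCODE 29 annotates 24 bases of the SNRPF window and 17 of the HNRNPU window as exon of other transcripts.
SNRPF (chr12:95858702-95858951, plus strand): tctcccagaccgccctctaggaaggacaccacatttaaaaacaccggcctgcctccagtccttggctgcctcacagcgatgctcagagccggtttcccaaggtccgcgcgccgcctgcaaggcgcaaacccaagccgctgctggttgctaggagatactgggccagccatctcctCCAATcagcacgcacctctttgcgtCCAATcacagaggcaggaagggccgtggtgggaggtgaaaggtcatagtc
HNRNPU (chr1:244864544-244864793, minus strand): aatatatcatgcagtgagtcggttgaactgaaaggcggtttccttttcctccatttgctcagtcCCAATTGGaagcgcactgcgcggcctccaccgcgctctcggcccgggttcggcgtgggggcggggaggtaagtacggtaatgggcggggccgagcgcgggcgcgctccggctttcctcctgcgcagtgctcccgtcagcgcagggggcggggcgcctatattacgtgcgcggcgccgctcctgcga

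Both windows hold CCAAT on 1 strand or the other, SNRPF at 2 places and HNRNPU as an overlapping pair on opposite strands. Neither holds CACGTG, the E-box that MYC binds with its partner MAX. RefSeq gave a window of 250 bases before to 50 after the start for 38 of the 41 members. CACGTG, which reads the same on both strands, was in 6 of 18 HNRNP windows (HNRNPA3, HNRNPD, HNRNPH2, HNRNPH3, HNRNPM and HNRNPUL1), in 0 of 10 SRSF and in 0 of 10 SNRP windows. It was in 7.26% of all 35116 windows and in 10.1% of those of genes at 5 RPKM or more. CCGGAAG or its reverse complement CTTCCGG, a core bound by ETS factors, was in 7 of 10 SNRP windows, 2 of 18 HNRNP and 2 of 10 SRSF windows, beside 10.3% of all windows and 18.6% of those of genes with at least 5 RPKM. CCAAT on either strand was in 12 of 18 HNRNP, 2 of 10 SRSF and 4 of 10 SNRP windows, beside 34.6% of all windows. Of the 38 windows, 31 hold annotated exon bases among the 250 before the start, so many searched stretches lie partly in transcribed sequence. Among the windows with CACGTG, such bases number 250 in HNRNPH3, 231 in HNRNPA3 and 208 in HNRNPM. They number 61 in HNRNPUL1, 43 in HNRNPD and 0 in HNRNPH2. The windows of SNRPE and SNRPG also include coding bases, so for them the searched stretch lies partly inside the gene. These matches describe letters in a window, not bound sites.

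Most splicing factor genes had slightly lower fitted levels with the e3 guides, and the genes that fell encode Sm ring proteins and abundant hnRNP proteins. Of the 41 members, all of which were tested, 6 fell, none rose and 35 did not pass between the 4 e3 libraries and the 4 control libraries (limma, Benjamini-Hochberg adjusted p under 0.05 over 13979 genes). The share that fell, 14.6%, stands beside 2.58% of all genes tested and 3.76% of those with at least 5 RPKM. Of all genes tested 2.63% were higher, and 5.2% were called in either direction. Fitted log2 changes were below 0 for 40 members, with a median of -0.17, beside 53.4% of all genes tested with a median of -0.02. All 4 e3 libraries lay below all 4 control libraries for 15 members and above them for 0, beside 7.51% and 7.58% of all genes tested. The 6 that fell were SNRPF, SNRPE, SNRPG, SNRPD2, HNRNPA2B1 and HNRNPU. This count depended on single libraries: it was 2 without the first or the second library of guide 1, 1 without either library of guide 2, either of the non-targeting guide or the first without a guide, and 4 without the second without a guide. SNRPF was called in each of these 8 fits. The fit takes the 4 e3 and the 4 control libraries as independent, although each side holds 2 groups of 2. With a correlation between libraries of a group estimated at 0.322, or with the replicate number as a block, only SNRPF passed. With the mean of each group as 1 sample none passed, and with median-ratio scaling SNRPF, SNRPE and SNRPG did.

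**Figure D1:**
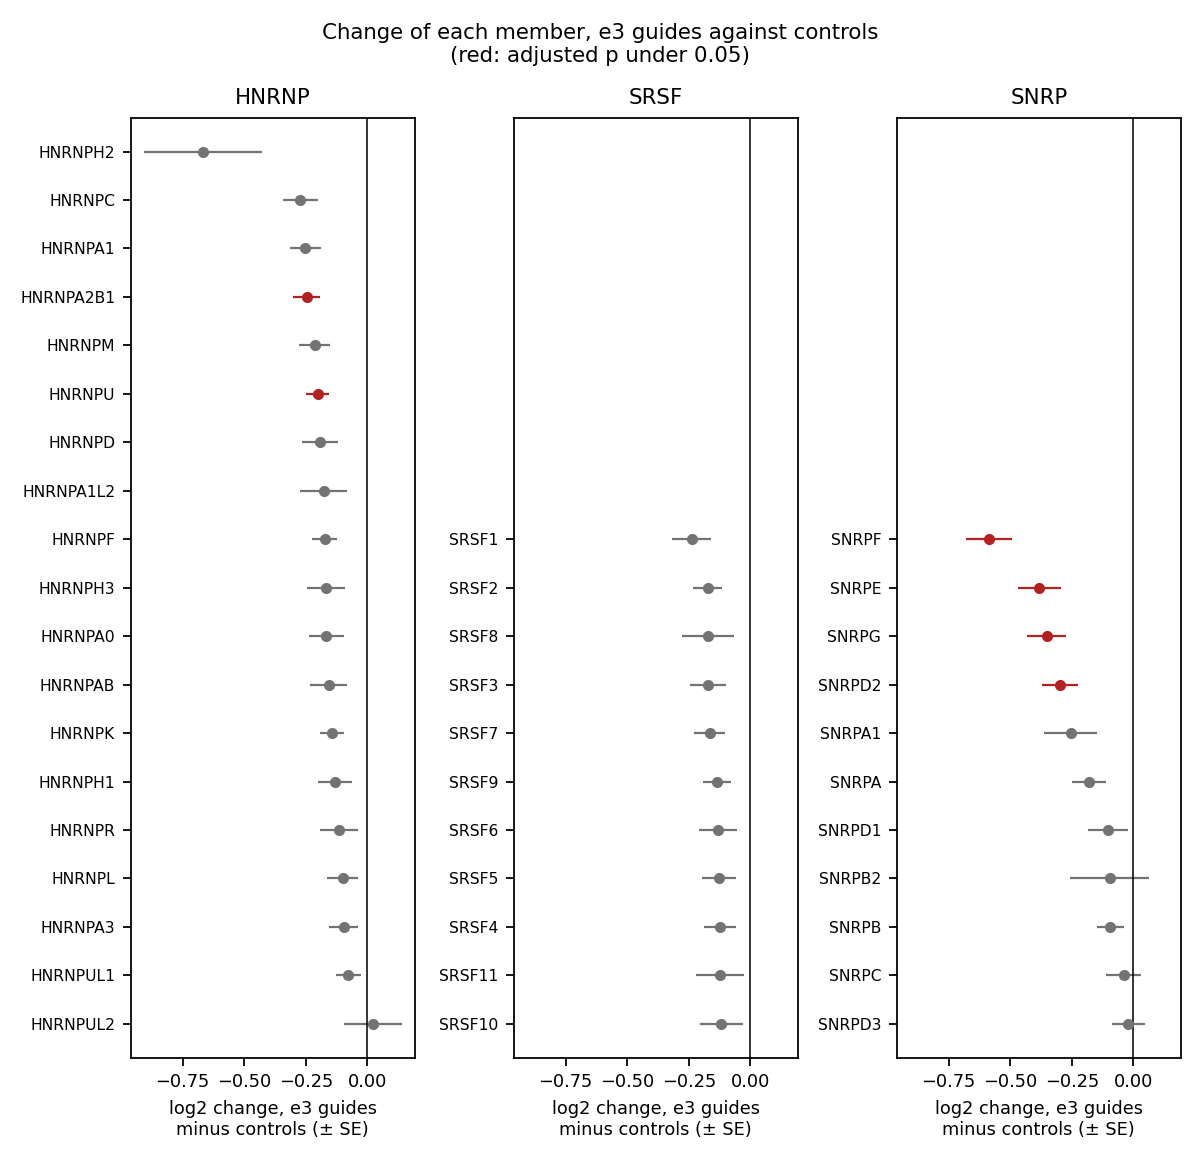
Log2 change on the log2(RPKM + 1) scale of each of the 41 members between the 4 e3 libraries and the 4 control libraries, with bars of 1 standard error. Red marks the 6 members with an adjusted p under 0.05; HNRNPUL2 alone lies to the right of 0.

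Summed over each family, the RPKM of the e3 libraries lay below those of the controls in all 3. The 19 HNRNP genes summed to 2182, 2157, 2025 and 2012 RPKM in the libraries of guides 1 and 2, against 2390.0 and 2377 RPKM with the non-targeting guide and 2341 and 2333 RPKM without a guide. For the 11 SRSF genes the sums were 638, 627, 613 and 601 RPKM with the e3 guides, 697.5 and 669 RPKM with the non-targeting guide and 725 and 683 RPKM without a guide. The 11 SNRP genes summed to 876, 891.5, 819 and 843 RPKM with the e3 guides, 1046 and 1032 RPKM with the non-targeting guide and 985 and 910.4 RPKM without a guide. In no family did the e3 and control sums overlap. These sums are dominated by the most abundant members and carry no test.

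**Figure D2:**
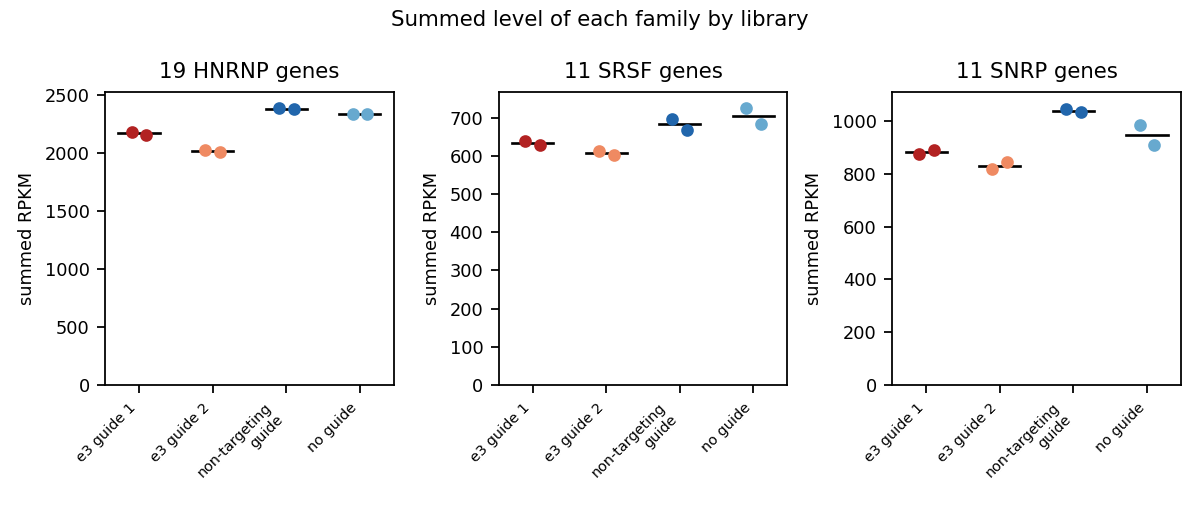
Summed RPKM of the members of each family in every library; points are libraries and short lines are means of the 2 libraries of a group. The 4 e3 sums of the HNRNP genes lie between 2012 and 2182 RPKM, below the 4 control sums of 2333 to 2390.0 RPKM.

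Among the snRNP genes, 4 of 11 fell, and all 4 encode subunits of the Sm ring. SNRPF (ENSG00000139343.6, chromosome 12), which encodes SmF, had 39.8 and 34.6 RPKM under guide 1 and 42.9 and 32.3 RPKM under guide 2, against 61.1 and 56.9 RPKM with the non-targeting guide and 55.0 and 52.6 RPKM without a guide. The highest e3 library thus stayed below the lowest control library. Its mean was 37.4 ± 4.81 RPKM with the e3 guides and 56.4 ± 3.57 RPKM in the controls (SD, n = 4 each), a log2 change of -0.59 ± 0.09 (SE; limma, adjusted p = 0.0113). Between 119 and 253 reads lay behind each of these values.

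SNRPE (ENSG00000182004.8, chromosome 1), the gene of SmE, had 34.9 and 31.5 RPKM under guide 1 and 31.6 and 37.3 RPKM under guide 2, against 43.3 and 47.8 RPKM with the non-targeting guide and 47.4 and 39.2 RPKM without a guide. The groups did not overlap, though the lowest control library was close to the highest e3 library. The log2 change was -0.38 ± 0.09 (limma, adjusted p = 0.0372). SNRPG (ENSG00000143977.9, chromosome 2), the gene of SmG, had 70.5 and 68.4 RPKM under guide 1 and 62.8 and 64.9 RPKM under guide 2, against 90.0 and 90.9 RPKM with the non-targeting guide and 87.9 and 73.6 RPKM without a guide. Its log2 change was -0.35 ± 0.08 (limma, adjusted p = 0.0355), and again the e3 libraries lay below every control library. SNRPE and SNRPG each lost the call in 11 of 16 alternatives, with adjusted p of 0.128 and 0.0964 with an estimated correlation and ranges of 0.026 to 0.407 and 0.0209 to 0.414 over the 16. SmE, SmF and SmG join the ring as a preformed trimer.

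SNRPD2 (ENSG00000125743.5, chromosome 19), whose product SmD2 enters the ring paired with SmD1, had 210.4 and 247 RPKM under guide 1 and 209 and 219.5 RPKM under guide 2, against 286 and 288 RPKM with the non-targeting guide and 269.6 and 247 RPKM without a guide. The highest e3 and the lowest control library were nearly level. The log2 change was -0.30 ± 0.07 (limma, adjusted p = 0.0465), and under quantile normalization it was -0.16 and no longer passed. It lost the call in 12 of 16 alternatives (adjusted p 0.0336 to 0.435). SNRPD1, the partner gene, had 46.9, 39.9, 47.1 and 41.9 RPKM with the e3 guides, against 51.9 and 47.5 RPKM with the non-targeting guide and 46.6 and 42.9 RPKM without a guide. These groups overlapped, and the change of -0.10 ± 0.08 did not pass (limma, adjusted p = 0.511).

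The other Sm genes did not pass either. SNRPB, which gives SmB and SmB′ by alternative splicing, averaged 140.5 ± 6.13 RPKM with the e3 guides and 150.0 ± 5.78 RPKM in the controls (SD, n = 4 each; log2 change -0.09). SNRPD3 averaged 119 ± 9.06 RPKM with the e3 guides and 121 ± 4.99 RPKM in the controls (SD, n = 4 each; log2 change -0.02 ± 0.07). The log2 changes of the 7 Sm genes thus ran from -0.59 to -0.02. Differences between the Sm genes in their changes were not tested.

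**Figure D3:**
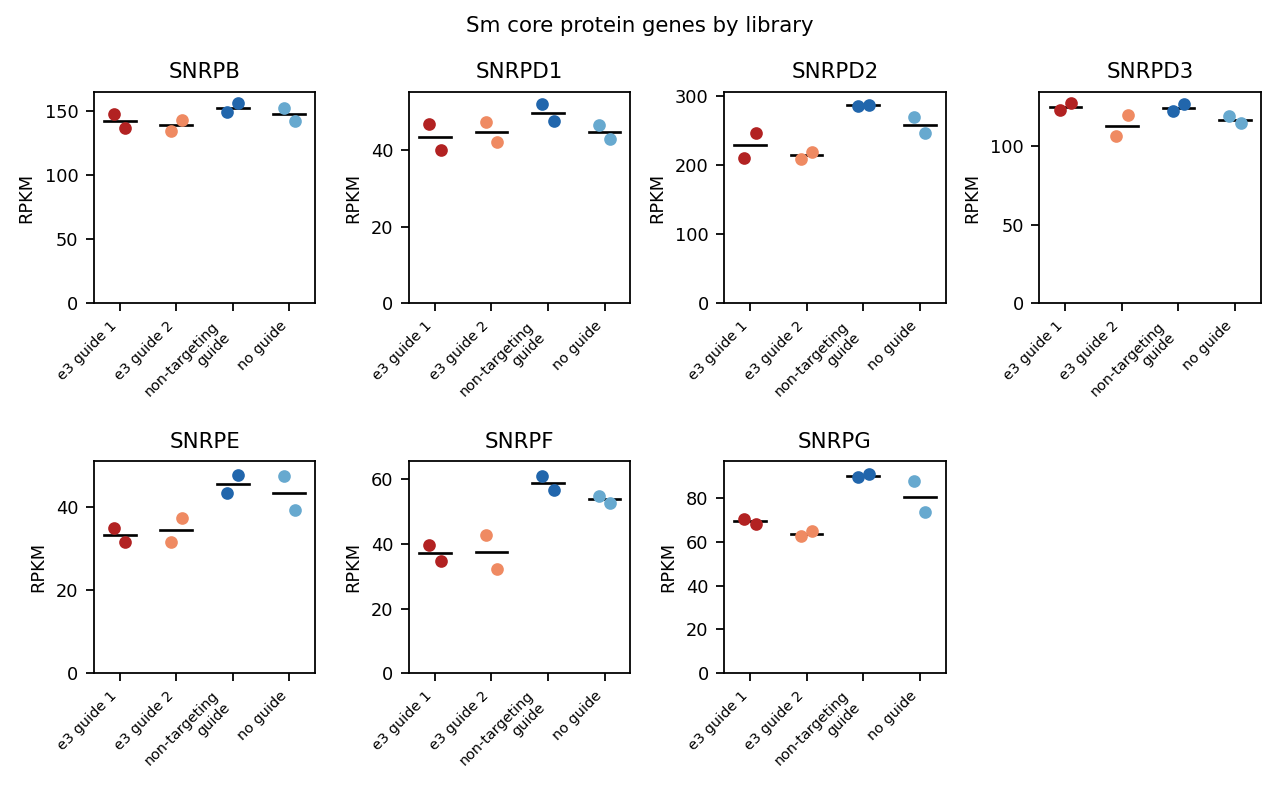
RPKM of the 7 Sm protein genes in every library, by group; points are libraries and short lines are means of the 2 libraries of a group. SNRPF, SNRPE, SNRPG and SNRPD2 lie lower in all 4 e3 libraries than in all 4 control libraries, while those of SNRPB, SNRPD1 and SNRPD3 overlap.

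The remaining SNRP genes encode proteins specific to the U1 or U2 snRNP, and none of them passed. SNRPA, the gene of the U1 protein A, had 70.3, 68.5, 67.6 and 63.5 RPKM with the e3 guides, against 85.2 and 75.4 RPKM with the non-targeting guide and 74.5 and 71.8 RPKM without a guide. The groups did not overlap, but the log2 change of -0.18 ± 0.07 missed the threshold (limma, adjusted p = 0.156). SNRPA1, the gene of the U2 protein A′, had 54.1 and 58.2 RPKM under guide 1 and 45.3 and 43.3 RPKM under guide 2, against 64.1 and 66.5 RPKM with the non-targeting guide and 55.0 and 54.3 RPKM without a guide. Of its guide 1 libraries, 1 lay just below and 1 above both libraries without a guide, and guide 2 lay below them. For SNRPA1 the log2 change was -0.26 ± 0.11 (limma, adjusted p = 0.209). SNRPC, the gene of the U1 protein C, and SNRPB2, that of the U2 protein B″, had log2 changes of -0.04 and -0.10, and for SNRPB2 the first library with the non-targeting guide (18.5 RPKM) stood above the other 7 (9.89 to 13.3 RPKM).

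Of the 19 hnRNP genes, 2 fell and 17 did not pass. HNRNPA2B1 (ENSG00000122566.15, chromosome 7), the member with the highest mean RPKM, encodes the RNA-binding proteins A2 and B1. It had 277 and 269 RPKM under guide 1 and 254 and 239 RPKM under guide 2, against 316.5 and 307 RPKM with the non-targeting guide and 307 and 303 RPKM without a guide. All e3 libraries lay below all controls, and those of guide 2 below those of guide 1. The log2 change was -0.25 ± 0.06 (limma, adjusted p = 0.0384), and under quantile normalization it was -0.13 and did not pass. It lost the call in 13 of 16 alternatives (adjusted p 0.0273 to 0.474). GENCODE 29 annotates exons of CBX3 overlapping it on the opposite strand, as it does CCDC38 for SNRPF and QPCTL for SNRPD2. Whether the counting used strand is not given in the sources used here, so reads of such pairs cannot be told apart.

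HNRNPU (ENSG00000153187.11, chromosome 1), whose product, also called SAF-A, binds RNA and chromatin, had 128 and 125 RPKM under guide 1 and 123 and 123 RPKM under guide 2, against 144 and 139.5 RPKM with the non-targeting guide and 148 and 145 RPKM without a guide. The 4 e3 libraries were close to each other and below the controls. Their mean was 125 ± 2.44 RPKM, against 144 ± 3.50 RPKM in the controls (SD, n = 4 each), a log2 change of -0.20 ± 0.05 (limma, adjusted p = 0.0415). It did not pass in 14 of 16 alternatives, among them every fit without 1 library, both scalings, the replicate block and the estimated correlation (adjusted p 0.0308 to 0.514 over the 16). COX20 overlaps its exons on the opposite strand in GENCODE 29.

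HNRNPA1 and HNRNPC just missed the threshold. HNRNPA1, a splicing repressor gene, had 138 and 137 RPKM under guide 1 and 128 and 117 RPKM under guide 2, against 159 and 155 RPKM with the non-targeting guide and 154 and 149 RPKM without a guide. HNRNPC, whose product binds uridine-rich stretches, had 96.5 and 94.1 RPKM under guide 1 and 82.4 and 80.7 RPKM under guide 2, against 106 and 106 RPKM with the non-targeting guide and 104 and 109.5 RPKM without a guide. In both genes every e3 library lay below every control and guide 2 below guide 1. Their log2 changes were -0.25 ± 0.06 and -0.27 ± 0.07 (limma, adjusted p = 0.0506 and 0.0539). Each passed in 2 of 16 alternatives, when only genes averaging 5 RPKM or more were tested and under quantile normalization, and in none of the other 14 (adjusted p up to 0.473). HNRNPA1 has many processed copies that can share its reads, so its values and those of HNRNPA1L2, an intronless copy at 21.6 RPKM, are uncertain.

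HNRNPM, HNRNPF, HNRNPK and HNRNPUL1 also had all e3 libraries below all controls without passing, with log2 changes of -0.21, -0.17, -0.14 and -0.08. HNRNPF encodes a binder of G-rich RNA and HNRNPK one of C-rich RNA. For HNRNPM, the values were 173 and 169 RPKM under guide 1 and 146 and 155 RPKM under guide 2, against 182 and 186 RPKM with the non-targeting guide and 184 and 193 RPKM without a guide. HNRNPL, which stood at the second-highest mean and encodes a binder of CA repeats, overlapped between groups at 249 ± 12.0 RPKM with the e3 guides and 267 ± 18.2 RPKM in the controls (SD, n = 4 each). HNRNPUL2 had the only fitted change above 0 (0.02 ± 0.12), with 12.3 to 17.9 RPKM in the e3 libraries and 14.1 to 15.3 RPKM in the controls. The largest fitted change, that of HNRNPH2 (-0.67 ± 0.24, limma adjusted p = 0.143), rested on 3, 3, 4 and 5 reads with the e3 guides, 8 and 9 with the non-targeting guide and 4 and 5 without a guide. GENCODE 29 places HNRNPH2 within the read-through gene RPL36A-HNRNPH2. The changes of the hnRNP genes not called, HNRNPH2 aside, lay between -0.27 and 0.02.

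No SR protein gene passed between the e3 guides and the controls, although 5 of 11 had an unadjusted p under 0.05, beside 22.2% of all genes tested (limma; adjusted p between 0.111 and 0.511). Their log2 changes were all below 0 and lay close together, between -0.24 and -0.12, with a median of -0.13. SRSF1, a splicing activator gene also known as a proto-oncogene, had 58.1 and 65.8 RPKM under guide 1 and 60.1 and 58.8 RPKM under guide 2, against 70.3 and 63.2 RPKM with the non-targeting guide and 76.3 and 77.8 RPKM without a guide. Its e3 values overlapped those of the non-targeting guide but not those without a guide (log2 change -0.24 ± 0.08, limma adjusted p = 0.111). SRSF2 had 114, 104, 107 and 111 RPKM with the e3 guides, against 131 and 116 RPKM with the non-targeting guide and 125 and 120.4 RPKM without a guide, without overlap (log2 change -0.17 ± 0.06, limma adjusted p = 0.12). SRSF7 was the other SR gene without overlap, at 42.9 ± 1.30 RPKM with the e3 guides and 48.3 ± 3.21 RPKM in the controls (SD, n = 4 each).

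SRSF9, the most abundant SR gene, had 155, 138, 143 and 137 RPKM with the e3 guides, against 163 and 158 RPKM with the non-targeting guide and 155 and 154 RPKM without a guide. SRSF3, which encodes one of the smallest SR proteins, had 99.0 and 105 RPKM under guide 1 and 92.0 and 87.2 RPKM under guide 2, against 110.1 and 109 RPKM with the non-targeting guide and 114 and 98.3 RPKM without a guide. In both, 1 or more e3 libraries stood above the lowest control library. SRSF4 had a log2 change of -0.12, SRSF5 of -0.13, SRSF6 of -0.13, SRSF8 of -0.17, SRSF10 of -0.12 and SRSF11 of -0.12. SRSF10 and SRSF8, at 8.05 and 11.3 RPKM, were the SR genes of lowest level.

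**Figure D4:**
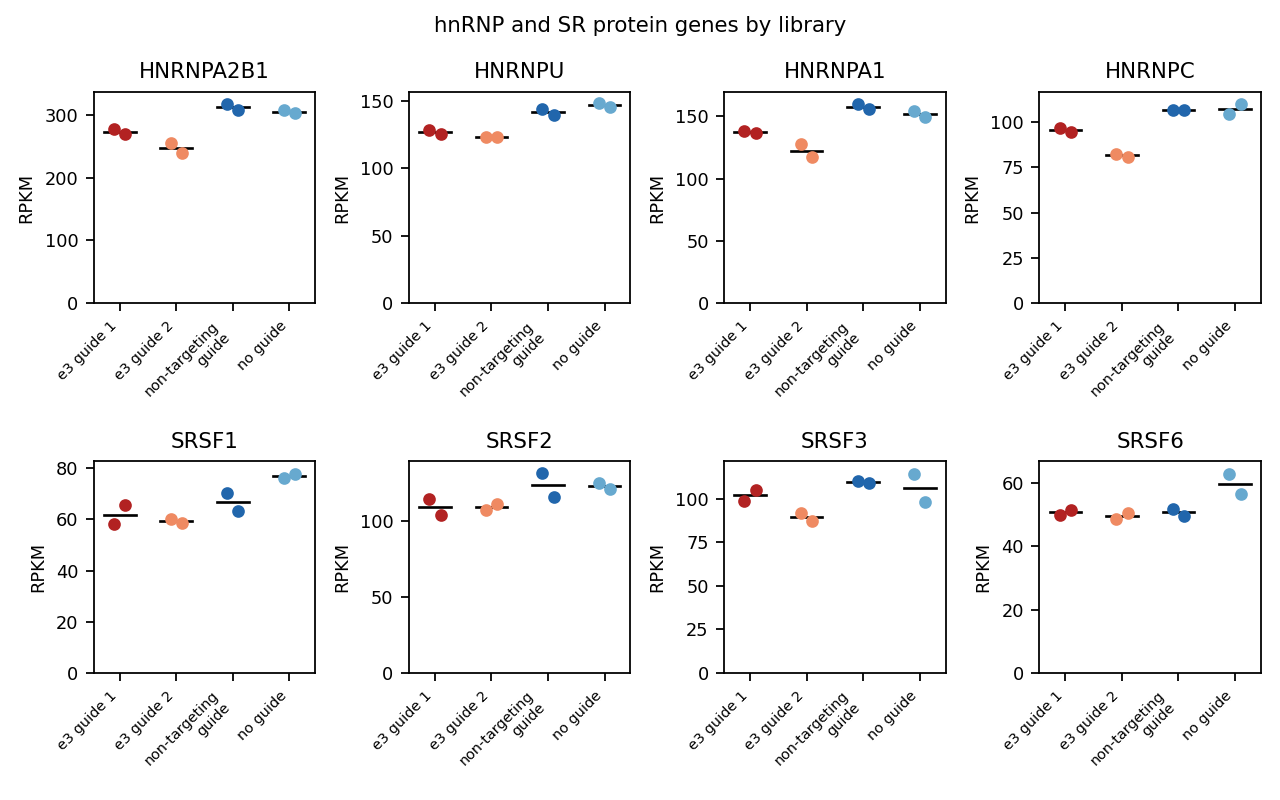
RPKM of 4 hnRNP and 4 SR protein genes in every library, by group; points are libraries and short lines are means of the 2 libraries of a group. HNRNPA2B1, HNRNPU, HNRNPA1, HNRNPC and SRSF2 lie lower in all 4 e3 libraries than in all controls, while SRSF1, SRSF3 and SRSF6 overlap.

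Each control was also taken alone, and the members that passed were partly others. These comparisons share the 4 e3 libraries, so they are not independent. Against the non-targeting guide alone, 7 of 41 members fell (17.1%) and none rose, beside 3.54% of all genes tested that were lower, 3.3% that were higher and 6.84% in either direction. Of genes with at least 5 RPKM, 5.29% were lower. The 7 members were in 2 families, HNRNP and SNRP. They were SNRPF (-0.65, limma adjusted p = 0.0183), SNRPG (-0.44, 0.0103), SNRPE (-0.42, 0.0331), SNRPD2 (-0.38, 0.0227), HNRNPA2B1 (-0.26, 0.0469), HNRNPAB (-0.26, 0.0476) and HNRNPH2 (-1.06, 0.0205). HNRNPH2 rested on 3 to 5 reads per library with the e3 guides and on 8 and 9 with the non-targeting guide. Against no guide, with 4 and 5 reads, HNRNPH2 did not pass (-0.28, limma adjusted p = 0.43). All 4 e3 libraries were below both non-targeting libraries in 28 members, beside 16.3% of all genes tested. HNRNPAB, whose product binds single-stranded nucleic acids, had 126, 116, 112 and 123 RPKM with the e3 guides, against 147 and 139 RPKM with the non-targeting guide and 127 and 120.5 RPKM without a guide. Without either library of the non-targeting guide no member was called, and the remaining library is then assumed to vary like the others. The count was 2 without the first library of guide 2, and 4 without its second or without the second of guide 1. Under quantile normalization HNRNPA2B1 changed by -0.07 and SNRPD2 by -0.17 in this comparison, and neither passed.

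Against the cells without a guide, again 7 of 41 fell (17.1%) and none rose, beside 8.03% of all genes tested that were lower, 8.68% that were higher and 16.7% in either direction. Of genes with at least 5 RPKM, 10.3% were lower. HNRNPU (-0.23, limma adjusted p = 0.0153), HNRNPA2B1 (-0.23, 0.0413), HNRNPA0 (-0.24, 0.0445), HNRNPF (-0.21, 0.0289), SRSF1 (-0.34, 0.0116), SRSF6 (-0.25, 0.0385) and SNRPF (-0.52, 0.0171) were called. SRSF6 had 49.9, 51.5, 48.4 and 50.5 RPKM with the e3 guides, against 51.8 and 49.5 RPKM with the non-targeting guide and 62.8 and 56.6 RPKM without a guide. The non-targeting guide thus lay at the level of the e3 guides in SRSF6. HNRNPA0 had 103, 97.2, 92.0 and 90.6 RPKM with the e3 guides, against 96.4 and 107 RPKM with the non-targeting guide and 109 and 118 RPKM without a guide. The count was 0 without the first and 1 without the second library without a guide, and 3 and 4 without the first and second library of guide 2. Members called against both controls taken singly were SNRPF and HNRNPA2B1.

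**Figure D5:**
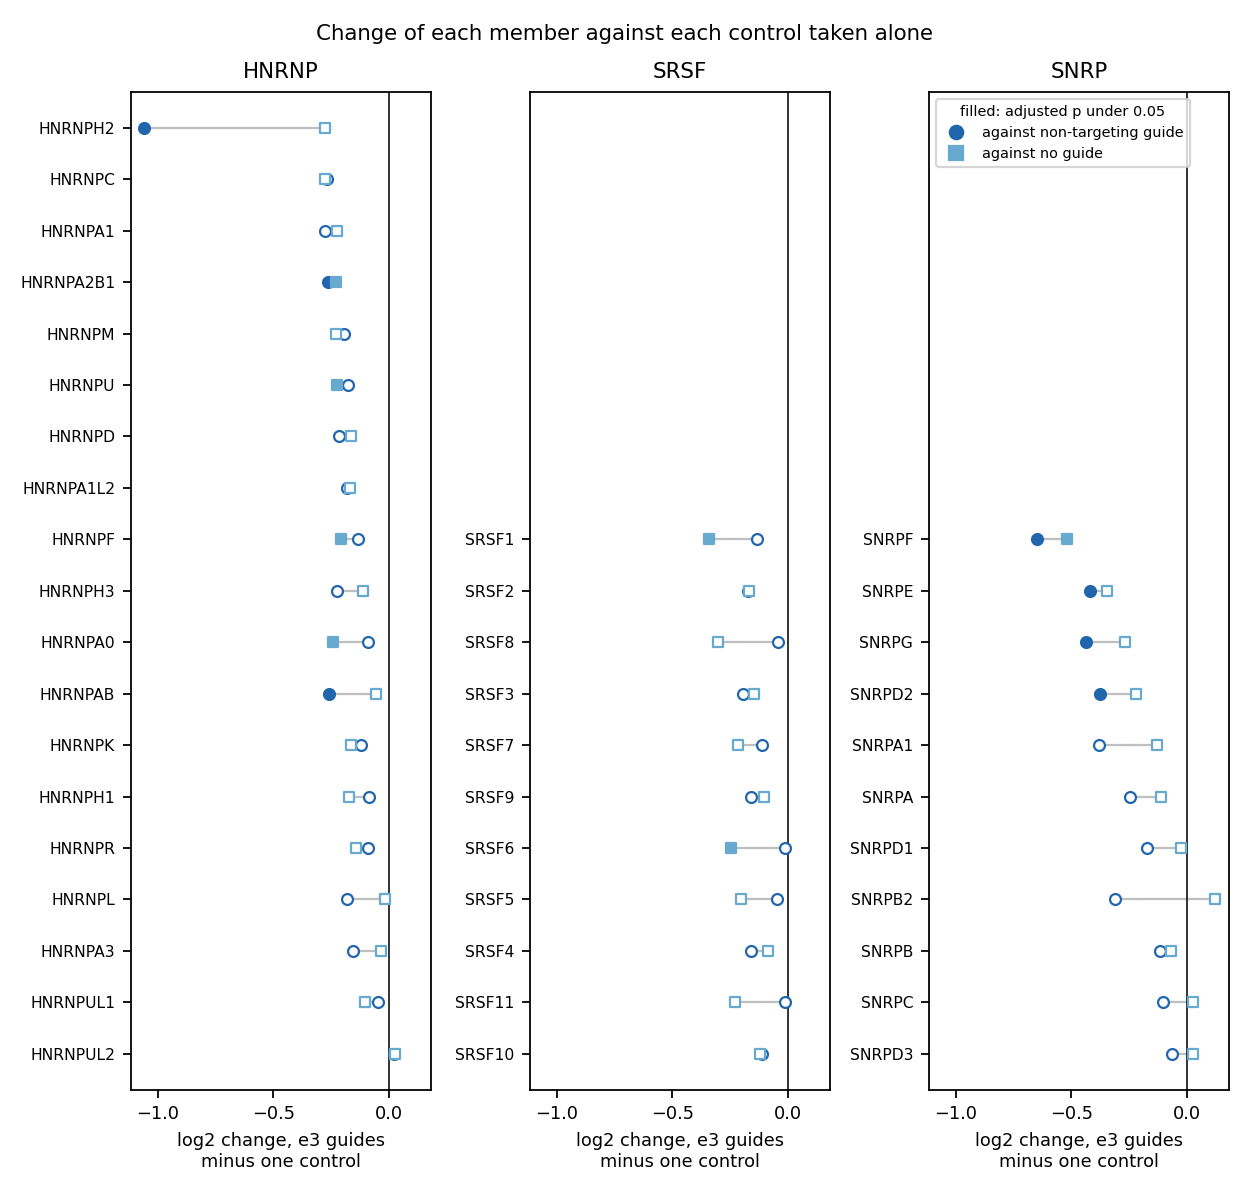
Log2 change of each member between the 4 e3 libraries and the 2 libraries with the non-targeting guide (circles) or the 2 without a guide (squares), on the log2(RPKM + 1) scale; filled symbols have an adjusted p under 0.05. The SNRP genes lie further left against the non-targeting guide, and most SRSF genes further left against no guide.

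Of the 41 members, 2 were called between the controls themselves, higher with the non-targeting guide, a smaller share than among all genes tested. SNRPA1 was higher by 0.25 ± 0.06 on the log2 scale (64.1 and 66.5 RPKM with the non-targeting guide, 55.0 and 54.3 RPKM without a guide; limma, adjusted p = 0.0363), and HNRNPL by 0.16 (278 and 287 RPKM with the non-targeting guide, 256 and 248 RPKM without a guide; adjusted p = 0.0449). Among all genes tested, 6.55% were higher, 5.81% lower and 12.4% called in either direction. All 11 SNRP genes had changes above 0, with a median of 0.13, while the SRSF genes had a median of -0.10 and the hnRNP genes of 0.00. For SRSF1 and SRSF6 the changes were -0.21 and -0.23 and did not pass (adjusted p = 0.131 and 0.0717). Under quantile normalization those 2 SR genes passed as lower, and SNRPA1 and HNRNPL no longer passed. HNRNPL was called in 0 and SNRPA1 in 2 of the 8 fits that left out a library. In 3 others the single call was HNRNPH2 or SNRPG, and without either library of the non-targeting guide or the second without a guide no member was called.

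Between the guides, guide 2 lay slightly lower than guide 1 in most members, but none passed (limma; 8 of 41 had an unadjusted p under 0.05, beside 10.4% of all genes tested). The median log2 change of guide 2 against guide 1 was -0.06 for the members and 0.00 for all genes tested, of which 0.0286% were called, 0.0215% higher and 0.00715% lower. Both libraries of guide 2 were below both of guide 1 in 17 members and above in 0, beside 20.5% and 20.9% of all genes tested. The members furthest below guide 1 were SNRPA1 (-0.33, limma adjusted p = 0.126), HNRNPD (-0.25, adjusted p = 0.126) and HNRNPC (-0.22, adjusted p = 0.18). HNRNPD, which encodes the AU-rich element binding protein AUF1, had 119.8 and 116 RPKM under guide 1 and 101 and 97.8 RPKM under guide 2, against 126 and 126 RPKM with the non-targeting guide and 124 and 119 RPKM without a guide. MYC changed by -0.24 between the guides in the same direction and did not pass (adjusted p = 0.193).

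Other genes of the splicing machinery were taken as 9 lists, of which 122 genes were tested. Between the e3 guides and the controls 7 of them fell (5.74%) and none rose, beside 2.58% of all genes tested that were lower and 3.76% of those with at least 5 RPKM. With counts of 0 to 2 per list, the shares of single lists are not read against that background. The median log2 change was -0.10 over all lists and ran from -0.15 to 0.07 between them, beside -0.02 for all genes tested. In the list for snRNP assembly, which also holds genes for the RNA cap and export, 2 of 16 fell, beside the 2.58% of all genes, with a median of -0.14. GEMIN4, a subunit of the SMN complex, had 11.4, 11.8, 10.4 and 10.1 RPKM with the e3 guides, against 13.3 and 15.9 RPKM with the non-targeting guide and 14.7 and 14.5 RPKM without a guide (log2 change -0.39, limma adjusted p = 0.0352). CLNS1A, which encodes the Sm chaperone pICln, had 14.5, 14.6, 10.96 and 11.9 RPKM with the e3 guides, against 18.4 and 16.8 RPKM with the non-targeting guide and 17.7 and 17.3 RPKM without a guide (log2 change -0.42, adjusted p = 0.0465). In both the groups did not overlap.

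In the LSM list 2 of 9 fell, again too few to be read against the 2.58% of all genes tested. Its proteins, LSM10 and LSM11 aside, form the ring of the U6 snRNP or of mRNA decay. LSM4 changed by -0.28 (limma, adjusted p = 0.0314) and LSM7 by -0.32 (adjusted p = 0.0428), and the list's median was -0.15. Of 12 U2 snRNP and U2AF genes, SF3B3 fell (-0.30, adjusted p = 0.0247), DHX15 did not pass (-0.27, adjusted p = 0.0516), and the median was -0.08. Of 15 hnRNP proteins under other symbols and FET genes, PCBP1, which encodes hnRNP E1, fell (-0.20, adjusted p = 0.0352), with 237, 241, 233 and 239 RPKM with the e3 guides, against 269 and 279 RPKM with the non-targeting guide and 267 and 276 RPKM without a guide. RALY, an hnRNP C relative, had a change of 0.26 and did not pass (adjusted p = 0.066), and the list's median was -0.12. With 113, 109, 110.0 and 105 RPKM under the e3 guides, against 99.95 and 97.2 RPKM with the non-targeting guide and 83.4 and 84.1 RPKM without a guide, RALY was called higher against no guide alone (0.38, adjusted p = 0.00228). CIRBP, a cold-inducible RNA-binding protein gene of the same list, was called higher against the non-targeting guide alone (0.29, adjusted p = 0.0483). Among 18 other splicing regulators ESRP2, an epithelial splicing factor gene, fell (-0.65, adjusted p = 0.0391), SFPQ did not pass (-0.19, adjusted p = 0.0631), and the median was -0.08. None passed among the 14 U5 and U4/U6 genes (median -0.12; PRPF8 -0.21 and CD2BP2 0.18), the 17 genes of the PRP19 complex and helicases (median -0.09; AQR -0.17 and CDC40 -0.30), the 16 SR kinase and SR-related genes (median -0.08; SRRM2 -0.22 and CLK1 -0.20) and the 5 minor spliceosome genes (median 0.07; RNPC3 -0.17 and ZMAT5 0.18). Over all 9 lists, 6 genes fell (4.92%) and 1 rose against the non-targeting guide alone, beside 3.54% and 3.3% of all genes tested, and 13 fell (10.7%) and 1 rose against no guide alone, beside 8.03% and 8.68%. Of genes with at least 5 RPKM, 5.29% were lower against the non-targeting guide and 10.3% against no guide. The shares of the lists that fell were close to these. Of the 7 list genes that fell in the main comparison, LSM4 and PCBP1 also passed against the non-targeting guide alone. SF3B3, GEMIN4, LSM7, CLNS1A and ESRP2 did not (limma, adjusted p between 0.0546 and 0.131). Against no guide alone CLNS1A did not pass (adjusted p = 0.0637) and the others did. ESRP2 averaged 26.5 RPKM with the non-targeting guide and 35.6 RPKM without a guide. Alternative fits were not read out for the list genes.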

How the data were processed

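The deposited values were RPKM, as the name of the authors' table states, that is, reads scaled for gene length and for sequencing depth, in 1 column per library. Per the submitters' processing notes, hg19 and Cufflinks were used, with no step given for either. The sources used here do not give the aligner, the counting or its strand setting. Columns were matched to samples by name. Reads behind each value were inferred because the values of 100.0% of genes tested were whole multiples of 1 read across libraries, to within 0.02 reads; no count test was run.

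The 13979 genes averaging 1 RPKM or more were tested with limma 3.58.1 (R 4.3.3) after taking log2(RPKM + 1) (moderated test with variance trend, two-sided), adjusted by Benjamini-Hochberg over all of them. Changes on this scale understate those of low genes. The e3 guides against both or either control used 2 groups, and the other comparisons a model of 4 groups. The fits were tested on simulated data with independent noise in each library, which cannot show how correlation within a group affects the calls. The members and lists were chosen with earlier results of these data known. By rule, up to 6 members per family were named for the main comparison (called first, then smallest p), 3 for each other comparison, the 3 highest in mean, the 2 just above and just below 5 RPKM, and 2 genes per further list; the remaining members named were added after their values were seen. Gene names are those of the table; promoters are from RefSeq. The alternatives tried were another pseudocount, 2 other filters, 2 scalings, a replicate block, leaving out each library, an estimated correlation and group means.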

Additional observations from a re-analysis of the deposited data

Results flagged for a closer look

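In each member the 4 e3 libraries and the 4 control libraries were examined for 1 library far from the others, 82 groups in all, of which chance would flag about 1 in 20. In 3 groups the gap between the extreme library and the nearest as a share of the group's range exceeded Dixon's critical value. HNRNPH1 stood at 61.0 RPKM in the first library with the non-targeting guide, HNRNPR at 32.8 RPKM in the first library of guide 1, and HNRNPUL1 at 201 RPKM in the second library without a guide. None of these 3 genes was called in any comparison.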

How the results depend on the processing

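The 6 members that fell with the e3 guides against both controls became 6 with a pseudocount of 0.1, 8 among genes of at least 5 RPKM, 5 under quantile normalization (HNRNPA1 and HNRNPC in, HNRNPA2B1, HNRNPU and SNRPD2 out), 1 without a filter, 3 with median-ratio scaling, 1 with the replicate block, 1 with an estimated correlation of 0.322 between libraries of a group and 0 with group means as samples, and 1 to 4 when 1 library was left out. Against the non-targeting guide the count (7) was 9 among genes of at least 5 RPKM, 9 with an estimated correlation, 6 with median-ratio scaling, 1 without a filter, 3 under quantile normalization, 4 with the replicate block and 0 to 6 with 1 library left out. Against no guide the count (7) was 10.0 among genes of at least 5 RPKM, 3 without a filter, 4 with median-ratio scaling, 13 under quantile normalization, 3 with the replicate block, 12 with an estimated correlation and 0 to 8 with 1 library left out. Between the controls the count (2) was 3 among genes of at least 5 RPKM, 1 without a filter (SNRPA1), 1 with the replicate block (HNRNPH2, not one of the 2) and 0 to 1 with 1 library left out (SNRPA1, HNRNPH2 or SNRPG). Between the guides 0 were called in each fit run. The correlation within groups was estimated at -0.105 against the non-targeting guide (9 called) and -0.13 against no guide (12 called). A negative value narrows the standard errors, so these 2 counts make no allowance for likeness of libraries within a group. With 1 control group in each fit, spread between control groups is not measured. Deviations of libraries sharing a number correlated between -0.02 and 0.01 across groups, so no large shift shared by number was seen. With 1 difference per group, this cannot show whether replicates were prepared in pairs. Among all genes, the 727 that passed with the e3 guides against both controls became 406 without a filter, 387 with the replicate block, 256 with an estimated correlation, 1 with group means and 180 to 580.0 with 1 library left out. No scaling moved the median of all genes by over 0.1. Of the log2 changes of named members under alternatives, 335 kept their side of the threshold, 159 no longer passed, 4 newly passed and none changed sign; the causes were not tested. SNRPF kept its call against the controls in 15 of 16 alternatives, with changes of -0.65 to -0.52. Levels resting on under about 10 reads, as in HNRNPH2, are imprecise. SRSF8, at a similar 11.3 RPKM, rested on 175 to 282 reads in the same libraries. The stretch counted for HNRNPH2 was therefore much shorter, and its values may not describe the whole transcript.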

Other observations

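Rows with a family prefix that the selection left out held signal of their own. HNRNPA1P7, a processed copy of HNRNPA1, stood at 89.3, 90.2, 83.9 and 88.7 RPKM with the e3 guides, against 98.4 and 106 RPKM with the non-targeting guide and 108 and 95.9 RPKM without a guide. HNRNPA1P10 stood at 87.3, 83.7, 82.9 and 71.0 RPKM with the e3 guides, against 90.4 and 86.5 RPKM with the non-targeting guide and 103 and 89.4 RPKM without a guide. HNRNPU-AS1 lay between 23.2 and 28.6 RPKM with the e3 guides and between 28.5 and 30.9 RPKM in the controls. The sources used here do not say how the reads of such copies were divided. HNRNPA1P4, HNRNPA3P3, HNRNPA3P5 and SNRPEP4 had means of 5.92 to 7.33 RPKM.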
